A study of Drosophila melanogaster with 9 samples.

Results

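The genes described here are 6 transcription factors of the ocellar region and the head capsule: *oc* (*ocelliless*, also called *orthodenticle* or *otd*), *en* (*engrailed*), *inv* (*invected*), *ems* (*empty spiracles*), *btd* (*buttonhead*) and *Sp1*. They were chosen by name for their known roles in head development, with earlier results of these data known, and were found by their FlyBase identifiers, without a threshold on any measured value. All 6 of 6 were among the 9076 genes, of 13676 in the count table, that passed the filter on low counts over all stages. RNA was sequenced from whole eye-antennal imaginal discs of *D. melanogaster* OregonR wildtype larvae, without any treatment, at 72h after egg laying (AEL, late L2), 96h AEL (mid L3) and 120h AEL (late L3). Each stage had 3 libraries, A, B and C, which makes 9 in all. A library was made from a pool of discs, whose number went down with their growth: 120 to 130 for 72h AEL, then 80 to 90 for 96h AEL, then 40 to 50 for 120h AEL. Male and female larvae gave the 72h AEL discs, and females alone gave those of both later stages. In any comparison with 72h AEL, the effects of sex and of stage therefore cannot be told apart. The titles of the 120h AEL libraries carry the word reanalysis, and stage and any batch behind this label cannot be told apart.

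The eye-antennal disc is the epithelial sac of the larva that forms the compound eye, the ocelli, the antenna, the maxillary palp and most of the adult head capsule. The ocelli are the simple eyes on the vertex, the dorsal top of the head. In this region the homeodomain protein Otd specifies vertex and ocellar fates together with Hedgehog (Hh) signalling, and the retinal determination genes *toy*, *so* and *eya* act in the ocellar cells. The homeodomain proteins En and Inv are paralogs that mark posterior compartments, among them that of the antennal disc, and En also acts in the ocellar region, where it dampens the response to Hh. *ems*, *btd* and *oc* are the classical head gap genes of the embryo. *btd* and *Sp1* encode related zinc finger proteins that act upstream of *Distal-less* in ventral appendages such as the antenna.

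Total counts ranged over the libraries from 17675472 to 37305763. Replicates A and B of 72h AEL differed by no more than sampling noise, with a chi-square of 1.02 per gene against 36.2 to 488 in the other 8 pairs of libraries from the same stage, and were therefore summed and counted as 1 sample. The tests thus rest on 8 independent samples, with n = 2 for 72h AEL and n = 3 for 96h AEL and for 120h AEL. The study describes the libraries of a stage as biological replicates, and the labels do not say which pools came from separate cultures, so the p-values measure the spread between these pools. Eye primordium markers (*ey*, *toy*, *so*, *eya*, *Optix*, *dac*) summed to 699 to 705 CPM (counts scaled to a common library size) at 72h AEL, 1489 to 2029 CPM at 96h AEL and to 1166 to 1228 CPM in the 120h AEL libraries, and antennal markers (*ss*, *Dll*, *ct*, *danr*, *dan*, *hth*) to 43.0 to 71.9 CPM, 329 to 408 CPM and 482 to 555 CPM in the same order of stages. The labelled tissue was thus present in all libraries. Markers of wing and leg discs, which also use *en* and *inv*, summed to between 4.38 and 12.5 CPM in all 9 libraries. Muscle markers summed to 189 to 583 CPM at 120h AEL, against 12977 to 16907 CPM at 72h AEL, and fat body markers varied within 120h AEL between 108 CPM in replicate B and 3659 CPM in replicate A. The part of these other tissues in the changes of the members was not tested.

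All 6 members were higher at 120h AEL than at 72h AEL, but the changes that passed the test fell in different intervals. Whether the paths of the members differed was not tested. *btd* and *Sp1* reached their L3 level by 96h AEL, at 3.28-fold and 2.47-fold the level of 72h AEL, and differed little between 96h and 120h AEL. *en* and *inv* were the members called in the second transition, at 2.75-fold and 2.16-fold from 96h to 120h AEL. They were also 2.22-fold and 1.79-fold higher at 96h than at 72h AEL, without overlap but just outside the threshold. *ems* was already the highest of the 6 per coding length at 72h AEL and was 1.93-fold higher at 96h AEL. *oc* was low at all stages, and *btd* was as low per coding length at 72h and 120h AEL. The change of *oc* passed the test only over the whole interval. Levels are given as CPM on library sizes scaled by TMM, a method that sets most genes to no net change, and the differences as log2 fold changes of the later over the earlier stage, tested with edgeR's quasi-likelihood test. In a whole disc, more cells expressing a gene and more RNA per cell cannot be told apart.

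**Figure D1:**
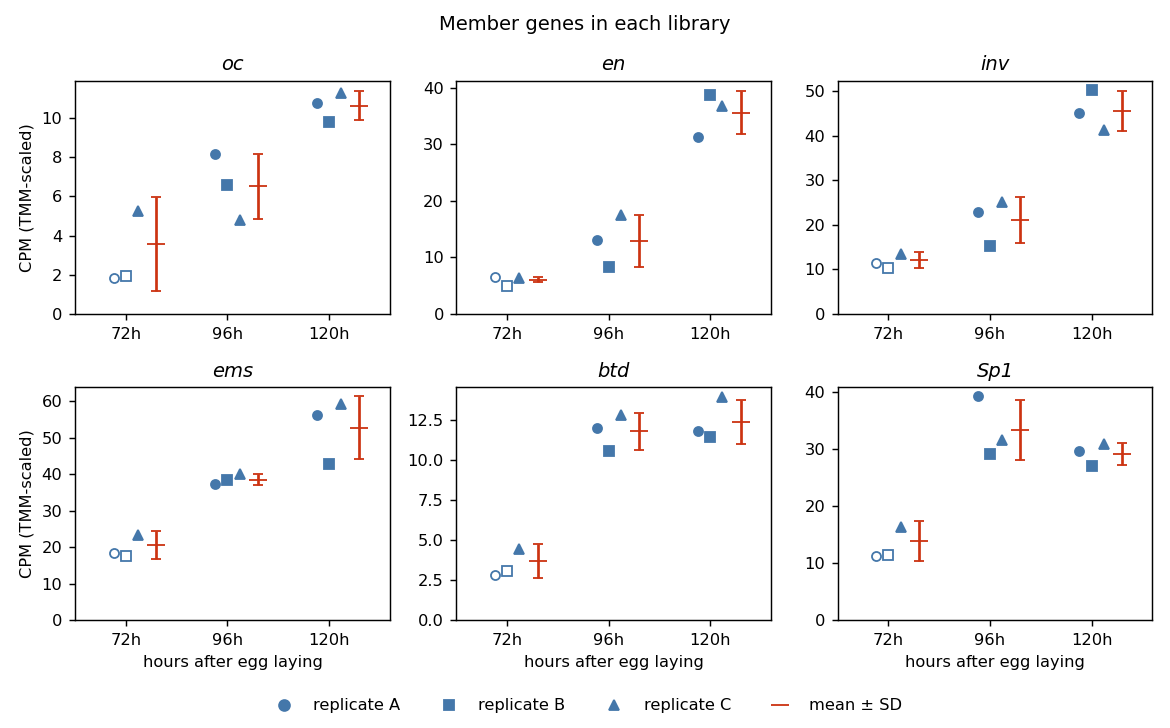
CPM on TMM-scaled library sizes (vertical axis, starting at 0, a scale of its own in each panel) of the 6 members at 72h, 96h and 120h AEL, with 1 symbol per library and the mean ± SD over samples in red. Open symbols at 72h AEL mark replicates A and B, which count as 1 sample. *en* and *inv* step up most at 120h AEL, while *btd* and *Sp1* sit level between 96h and 120h AEL.

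*oc* is named after the missing ocelli of its mutants, and its protein is also needed later for photoreceptor maturation. It lies on the reverse strand at chrX:8630159-8650681 (BDGP6). It had 1.81, 1.95 and 5.25 CPM in replicates A, B and C at 72h AEL, 8.15, 6.55 and 4.82 CPM at 96h AEL, and 10.8, 9.81 and 11.3 CPM at 120h AEL. The 3 libraries of 120h AEL thus lay above all others, whereas 96h AEL and 72h AEL overlapped through replicate C of each. Means were 3.56 ± 2.38 CPM (SD, n = 2), 6.51 ± 1.67 CPM (SD, n = 3) and 10.6 ± 0.749 CPM (SD, n = 3) at 72h, 96h and 120h AEL. The change to 96h AEL (log2 fold change 0.91, SE 0.57, adjusted p = 0.232) and that from 96h to 120h AEL (0.71, SE 0.24, adjusted p = 0.118) did not pass the threshold, although the samples of 120h and 96h AEL did not overlap. Over the whole interval, 120h AEL relative to 72h AEL, the log2 fold change was 1.58 (SE 0.49, adjusted p = 0.0431). *oc* was also the member with the fewest reads, 40 to 126 counts per library at 72h AEL, where counting error alone was 15.8% at the lowest count. Replicate C at 72h AEL carried 2.79 times the mean *oc* level of replicates A and B, a ratio above that of 98.2% of genes. Without that replicate the change from 72h to 96h AEL was 1.84 (adjusted p = 0.0689) and that to 120h AEL 2.47 (adjusted p = 0.00580).

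The other members were also higher in 72h AEL replicate C than in the mean of replicates A and B, as were 50.7% of all genes. The ratio ran from 1.10 for *en* to 1.52 for *btd*. For *en*, replicate A (6.52 CPM) still lay above replicate C (6.33 CPM). The spread between replicate C and the others at 72h AEL enters each test against that stage. The paper names this replicate as the only library with lower read quality at some position. Its hemocyte markers summed to 1369 CPM, against 338 and 342 CPM in A and B, and its cuticle epidermis markers to 1856 CPM, against 807 and 796 CPM. Sums of eye primordium, fat body, salivary gland and trachea markers were lower in it, and those of the other lists higher. The part of this in the member levels was not tested.

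*en* and *inv* lie next to each other on chromosome arm 2R (BDGP6), *inv* at chr2R:11474465-11509695 on the forward strand and *en* at chr2R:11524006-11528210 on the reverse strand. The genes are 14310 bases apart with 0 protein-coding genes between them, and no other gene has exons on their coding sequences. *en* had 6.52, 4.98 and 6.33 CPM in replicates A, B and C at 72h AEL, 13.1, 8.34 and 17.5 CPM at 96h AEL, and 31.3, 38.8 and 36.7 CPM at 120h AEL. No 2 stages overlapped, and the gap between 96h and 120h AEL was wider than the range of either. *inv* had 11.4, 10.4 and 13.4 CPM at 72h AEL, 22.8, 15.3 and 25.2 CPM at 96h AEL, and 45.0, 50.3 and 41.4 CPM at 120h AEL. The stages of *inv* were separate in the same way, and at 96h AEL replicate B was the lowest and replicate C the highest library for both genes.

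From 72h to 96h AEL the differences of *en* (log2 fold change 1.15, SE 0.38, adjusted p = 0.0590) and *inv* (0.84, SE 0.28, adjusted p = 0.0631) lay just outside the threshold. From 96h to 120h AEL both rose, *en* by 1.46 (SE 0.27, adjusted p = 0.0150) and *inv* by 1.11 (SE 0.20, adjusted p = 0.0136). Over the whole interval *en* had the largest change of the 6 members, a log2 fold change of 2.56 (SE 0.19, adjusted p = 7.50e-04), which is 5.90-fold and higher than in 96.3% of genes tested. *inv* was 3.74-fold higher in the same comparison (1.90, SE 0.18, adjusted p = 0.00145). The late call of *en* was lost when replicate A of 96h AEL (adjusted p = 0.0528) or replicate C of 120h AEL (adjusted p = 0.0594) was left out, and that of *inv* held without any 1 library. Markers of other cell types, of the disc and of other tissues, also differed in this interval, in both directions. Muscle markers summed to 189 to 583 CPM at 120h AEL, against 1698 to 6518 CPM at 96h AEL (4 of 4 lower). Eye primordium markers summed to 1166 to 1228 CPM, against 1489 to 2029 CPM (3 of 6 lower). Photoreceptor markers summed to 556 to 744 CPM at 120h AEL, against 175 to 298 CPM at 96h AEL (3 of 5 higher). The brain neuron markers summed to 26.2 to 27.8 CPM at 120h AEL, against 5.77 to 10.3 CPM at 96h AEL, with *nSyb*, *brp* and *Syt1* called higher (3 of 3 tested) and *Gad1* and *VGlut* under 1 CPM in all 120h AEL libraries. The salivary gland markers summed to 208 to 252 CPM, against 1.07 to 3.26 CPM, with 4 of 4 tested called higher (the *Sgs* genes of the glue) and the gland's transcription factor gene *fkh* under 1 CPM in all 120h AEL libraries. Glial markers summed to 399 to 440 CPM, against 264 to 309 CPM (2 of 5 higher), and hemocyte markers to 176 to 1016 CPM, against 67.6 to 329 CPM (1 of 5 higher). Glia also lie in the disc itself, as the paper describes retinal glia that migrate into it. These sums do not tell cells of the disc from those of other tissues. The *Sgs* genes, *nSyb* and *Syt1* passed the filter only through 120h AEL, so they could hardly have been called lower. The part of these cells and tissues in the rise of *en* and *inv* was not tested.

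*inv* had more reads than *en* in every library, and the ratio of *en* to *inv* counts, which is free of library scaling, was compared between stages. It was 0.574, 0.479 and 0.472 in replicates A, B and C at 72h AEL, then 0.573, 0.544 and 0.694 in the 96h AEL libraries and 0.696, 0.772 and 0.887 in those of 120h AEL. All libraries of 120h AEL lay above those of the earlier stages, by a narrow margin over replicate C of 96h AEL. The mean ratio was 0.499 ± 0.0377 for 72h AEL (SD, n = 2), 0.604 ± 0.0797 for 96h AEL and 0.785 ± 0.0963 for 120h AEL (SD, n = 3 each). The log2 difference of 120h AEL over 72h AEL was 0.65, with an exact permutation p of 0.1 (two-sided), the smallest that these sample numbers allow. Over the 6 ratio comparisons made for this pair and for *btd* and *Sp1* the adjusted value was 0.2 in each. With these sample numbers no difference in ratio could have reached 0.05, so these tests cannot show whether the ratios differed.

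**Figure D2:**
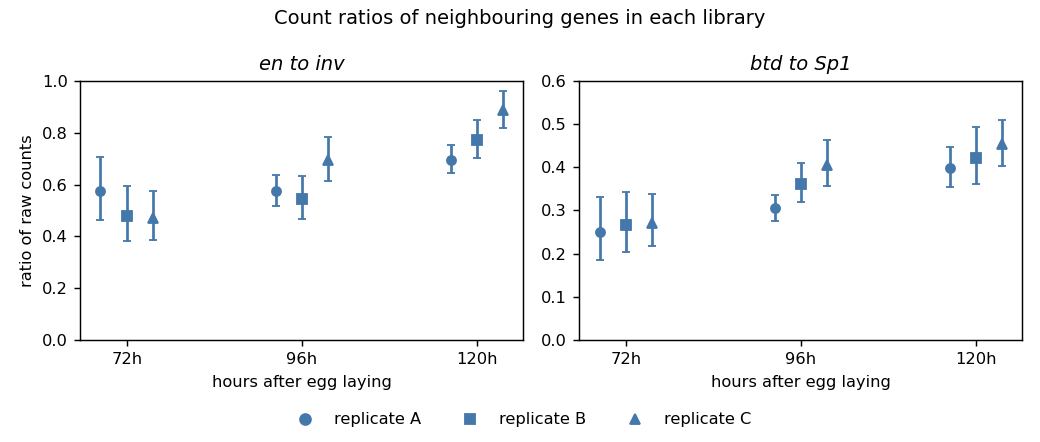
Ratio of raw counts of *en* to *inv* (left) and of *btd* to *Sp1* (right) in each library at 72h, 96h and 120h AEL, with 95% intervals for counting error only. Vertical axes start at 0 and differ between panels, and the 120h AEL libraries hold the highest mean ratio of both pairs, 0.785 and 0.425.

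*ems* encodes a homeodomain protein that patterns the embryonic head and brain, and lies at chr3R:13901853-13904620. It had 18.3, 17.6 and 23.3 CPM in replicates A, B and C at 72h AEL, 37.2, 38.3 and 40.0 CPM at 96h AEL, and 56.2, 42.8 and 59.2 CPM at 120h AEL. The stages did not overlap, and replicate B of 120h AEL came closest to the 96h AEL libraries. Means were 20.6 ± 3.76 CPM (SD, n = 2), 38.5 ± 1.39 CPM and 52.7 ± 8.72 CPM (SD, n = 3 each) at 72h, 96h and 120h AEL. *ems* rose by 0.95 on the log2 scale at 96h AEL (SE 0.18, adjusted p = 0.0183). The further difference at 120h AEL was 0.45 (SE 0.14, adjusted p = 0.0926), and became significant without replicate B of 120h AEL (0.58, adjusted p = 0.0220). Over the whole interval *ems* was 2.55-fold higher (1.35, SE 0.22, adjusted p = 0.00672).

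*btd* and *Sp1* form the second pair of neighbours. Both lie on the forward strand of the X chromosome, *btd* at chrX:9694186-9697558 and *Sp1* at chrX:9729648-9756369, 32089 bases apart with 0 protein-coding genes between them. *btd* had 2.81, 3.07 and 4.46 CPM in replicates A, B and C at 72h AEL, 12.0, 10.6 and 12.8 CPM at 96h AEL, and 11.8, 11.4 and 14.0 CPM at 120h AEL. *Sp1* had 11.2, 11.5 and 16.4 CPM at 72h AEL, 39.3, 29.2 and 31.6 CPM at 96h AEL, and 29.6, 27.0 and 30.8 CPM at 120h AEL. For both genes the libraries of 72h AEL were separate from all later ones, and those of 96h and 120h AEL were intermingled.

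At 96h AEL *btd* rose by 1.72 on the log2 scale (SE 0.32, adjusted p = 0.0175), the largest change of the members in that comparison and above 95.4% of genes tested, and *Sp1* by 1.31 (SE 0.26, adjusted p = 0.0192). From 96h to 120h AEL the log2 fold change was 0.07 for *btd* (SE 0.17, adjusted p = 0.813) and -0.19 for *Sp1* (SE 0.14, adjusted p = 0.408), and neither passed the test. Without replicate B of 96h AEL or replicate C of 120h AEL the value of *btd* was just below 0. At 120h AEL *btd* was 3.35-fold higher than at 72h AEL (1.74, SE 0.30, adjusted p = 0.00812) and *Sp1* 2.09-fold higher (1.07, SE 0.22, adjusted p = 0.0132). Both genes are X-linked, as is *oc*, and the 72h AEL discs came from both sexes. The ratio of *btd* to *Sp1* counts was 0.250, 0.266 and 0.272 in replicates A, B and C at 72h AEL, then 0.305, 0.362 and 0.406 in the 96h AEL libraries and 0.399, 0.423 and 0.453 in those of 120h AEL. The stages 96h and 72h AEL did not overlap in this ratio, while 120h and 96h AEL did. The log2 difference was 0.42 from 72h to 96h AEL (exact permutation p = 0.2) and 0.68 between 120h AEL and 72h AEL (exact permutation p = 0.1, two-sided).

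Set beside all genes, the members stood above the middle of the distribution in the transition from L2 to L3. Between 96h AEL and 72h AEL 3 of the 6 members were called at an adjusted p under 0.05, *ems*, *btd* and *Sp1*, all of them higher, where 42.4% of the 8871 genes tested were called, 19.4% higher and 23.0% lower. The median log2 fold change of the members was 1.05, against -0.04 over all genes. The samples did not overlap for 5 of 6 members, all with higher levels at 96h AEL, where 72.1% of all genes did not overlap, 34.0% with higher and 38.1% with lower levels. With all samples DESeq2 called 5 of the 6. The shares above are those of edgeR, and the share of all genes called by DESeq2 is not given here. When replicate B of 96h AEL was left out, edgeR called 0 of the 6 members (5 at an unadjusted p under 0.05) and 646 genes in place of 3760.

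Between 120h AEL and 96h AEL 2 of the 6 members were called, *en* and *inv*, both higher, where 14.6% of the 8117 genes tested were called, 8.32% higher and 6.33% lower. The median of the members was 0.58, against 0.01 over all genes. The samples did not overlap for 4 of 6 members, all in the direction of higher levels at 120h AEL, where 33.7% of all genes did not overlap 18.1% with higher and 15.6% with lower levels. The number of members called ranged between 1 and 3 over the fits that leave out a single library, the 1 being *inv* when replicate A of 96h AEL or replicate C of 120h AEL was missing.

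Between 120h AEL and 72h AEL all 6 of 6 members were called higher and did not overlap, where 53.0% of the 9054 genes tested were called, 24.0% higher and 29.0% lower, and 74.3% did not overlap, 36.4% with higher and 37.9% with lower levels. The median of the members was 1.66, against -0.01 over all genes. This comparison uses the samples of the other two again. Leaving out a library of 120h AEL cost calls: *oc* was lost without replicate A (adjusted p = 0.109), B (0.0714) or C (0.122), and *Sp1* without replicate A (0.0525) or C (0.0636).

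**Figure D3:**
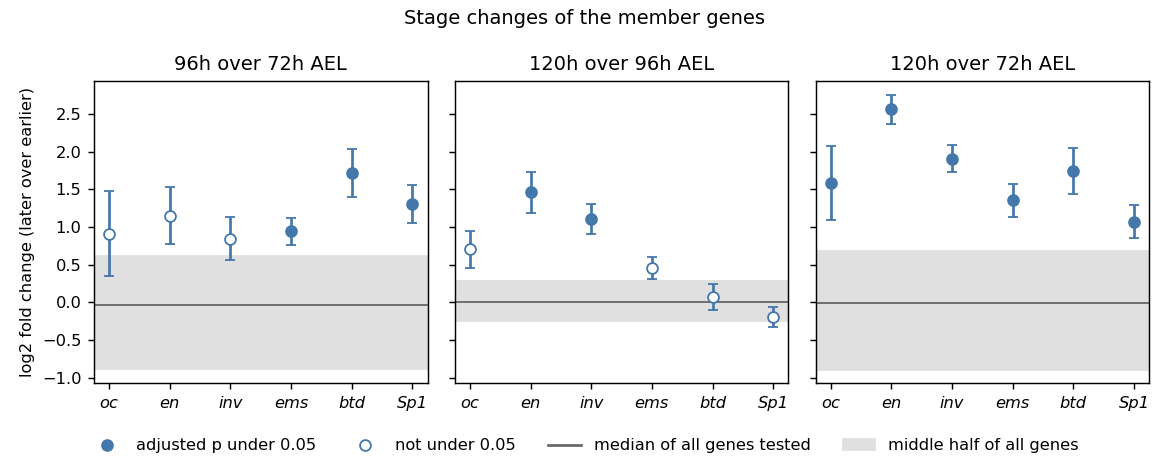
Log2 fold change of the later over the earlier stage (vertical axis) for each member in the 3 comparisons, with bars of 1 SE from edgeR. Filled points have an adjusted p under 0.05, the line is the median of all genes tested and the grey band runs between the quartiles of all genes. From 72h to 96h AEL all 6 members lie above the band and 3 are filled, while *btd* and *Sp1* fall inside it from 96h to 120h AEL.

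Levels between genes were compared per kilobase of coding sequence. At 72h AEL the order was *ems* (13.9 ± 2.53 CPM per kb), *inv* (7.02 ± 1.03), *Sp1* (6.37 ± 1.63), *en* (3.64 ± 0.248), *oc* (2.16 ± 1.45) and *btd* (1.91 ± 0.555; SD, n = 2), where *inv* and *Sp1* overlapped, as did *oc* and *btd*. At 96h AEL it was *ems* (25.9 ± 0.935 CPM per kb), *Sp1* (15.3 ± 2.43), *inv* (12.2 ± 2.97), *en* (7.81 ± 2.76), *btd* (6.09 ± 0.591) and *oc* (3.95 ± 1.01; SD, n = 3), where *Sp1* overlapped with *inv*, *inv* with *en* and *en* with *btd*. At 120h AEL it was *ems* (35.5 ± 5.87 CPM per kb), *inv* (26.3 ± 2.58), *en* (21.5 ± 2.33), *Sp1* (13.4 ± 0.891), *oc* (6.45 ± 0.455) and *btd* (6.41 ± 0.706; SD, n = 3), where *ems* overlapped with *inv* and *oc* with *btd*. *ems* was thus on top and *oc* or *btd* at the bottom at every stage, and *Sp1*, second in mean at 96h AEL, lay below *en* and *inv* without overlap at 120h AEL. Among the 9076 expressed genes all 6 moved up in rank per coding length between 72h and 120h AEL, *en* to the 48.1 percentile at 120h AEL, against the 10.7 percentile at 72h AEL, and *ems* to the 64.0 percentile, against the 35.2 percentile.

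Among the members, *en* and *inv* had the most similar profiles (Pearson r of log2 CPM 0.992 over 8 samples), followed by *btd* and *Sp1* (0.962), and *en* and *Sp1* the least similar (0.620). All points share library and stage, and these values are descriptions only. In the deposited assignment of 8836 genes to 13 co-expression clusters, which was made from the same counts, *oc*, *en*, *inv* and *ems* are in cluster 12 with 332 genes (3.76% of those assigned) and *btd* and *Sp1* in cluster 10 with 935 genes (10.6%).

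For each member the 5 genes with the most similar profile over the 8 samples were listed. For *en* these were *ninaB* (0.996), a carotenoid oxygenase gene, *inv*, *CG1273*, *CG11550* and the gap gene *kni* (0.991). *inv* had *ninaB* (0.994), *en*, *CG1273*, *pn* and the transcription factor gene *TfAP-2* (0.987), and thus shared *ninaB* and *CG1273* with *en*. *oc* was most like *Eip63E* (0.986), *luna*, *CG32100*, *Pdk1* and the Notch ligand gene *Ser* (0.973), and *ems* most like *CG6026* (0.993), *magu*, *Kr-h1*, *scyl* and *Wdr81* (0.987). *btd* had *CG30183* (0.991), *ss* (0.991), the antennal selector gene, *CG14073*, the ETS factor gene *pnt* and *CG8726* (0.986). *Sp1* had *CG14102* (0.988), *Daxx*, *hfw*, *mkg-p* and a gene without a name in the annotation used (0.984). Between 348 genes for *oc* and 1122 for *Sp1* reached an r over 0.9, so the lists hold the top of a broad group.

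The genes around the members were taken from 6 lists, which partly hold the same genes. Their counts stand beside the shares of all genes called. These were 19.4% higher and 23.0% lower for 96h over 72h AEL, and 8.32% and 6.33% for 120h over 96h AEL. For 120h over 72h AEL they were 24.0% and 29.0%. The list of the ocellar network contains Hh pathway, retinal determination and Notch pathway genes. At 96h AEL 11 of its 12 tested genes rose relative to 72h AEL, with a median log2 fold change of 1.56. The largest changes were those of the receptor gene *N* (2.58), its ligand gene *Dl* (2.33) and the proneural gene *ato* (2.22). The ligand gene *hh* had 32.0 to 35.2 CPM at 96h AEL, against 8.32 to 14.0 CPM at 72h AEL, and rose by 1.62 (SE 0.27, adjusted p = 0.0146). The Hh receptor gene *ptc* rose by 1.49, the pathway's transcription factor gene *ci* by 1.06, *eya* by 1.69 and *toy* by 1.11, whereas *so* had a log2 fold change of 0.57 (adjusted p = 0.0584). From 96h to 120h AEL only 3 of the 12 were called, *hth* (0.84), *hh* (0.72, adjusted p = 0.00699) and *rdx* (0.62), which encodes an adaptor for the turnover of Ci, and the list's median was 0.01. In that interval *hh* rose together with *en* and *inv*, while *ptc* (-0.01), *ci* (-0.08), *toy* (0.02), *so* (-0.06) and *eya* (-0.15) were not called. Over the whole interval all 12 were higher at 120h AEL, led by *Dl* (2.94), *ato* (2.85) and *hth* (2.56).

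The list of En partners and targets holds the corepressor gene *gro*, the cofactor genes *exd* and *hth*, and *ci*, *hh*, *ptc* and *dpp*. All 7 rose at 96h AEL (median 1.24). Of these 7, *hth* and *hh* were higher and *dpp*, which encodes a BMP ligand, fell by 0.81 at 120h AEL relative to 96h AEL, and 4 were not called. At 120h AEL relative to 72h AEL 5 were higher and 2 were not called, with *hth* at 2.56, *hh* at 2.30 and *ptc* at 1.44.

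Among appendage genes of the *btd* and *Sp1* pathway 8 of 11 rose at 96h AEL, with a median of 1.76, and 3 were not called. The largest changes were those of *ss* (3.32), *dac* (2.96), a gene of the eye and of intermediate appendage segments, and *B-H1* (2.80), a homeobox gene of distal segments. At 72h AEL *ss* had 1.47 to 3.46 CPM, *B-H1* 2.76 to 3.29 CPM and *C15* 1.95 to 2.46 CPM. These genes passed the filter only through the later stage and could hardly have been called lower. *Dll*, which encodes the homeodomain protein of distal appendages, had 38.6 to 57.1 CPM at 96h AEL, against 10.9 to 14.6 CPM at 72h AEL, a log2 fold change of 1.86 (SE 0.27, adjusted p = 0.0110). At 120h AEL relative to 96h AEL 5 of 11 were higher, with *al* at 1.57 and *Lim1* at 1.20, and *dac* (-0.99) and *dpp* (-0.81) were lower. *Dll* had a log2 fold change of 0.55 in this interval (adjusted p = 0.116), in which *btd* and *Sp1* were not called either. Relative to 72h AEL 9 of 11 were higher at 120h AEL and 2 were not called, with *ss* at 3.87, *B-H1* at 3.73 and *B-H2* at 3.27. The antennal marker genes as a whole were higher in 6 of 6 cases at 96h AEL (median 2.59), and their part in the changes of *btd* and *Sp1* was not tested.

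Of 9 tested head capsule and dorsal head genes 5 rose at 96h AEL and 4 were not called, led by *hth* (1.76), the Hox gene *lab* (1.42) and the Iroquois gene *ara* (1.32). At 120h AEL 2 were higher than at 96h AEL, *Dfd* (1.48), the Hox gene of the maxillary region, and *hth* (0.84), and 2 were lower, among them *dpp* (-0.81). At 120h AEL relative to 72h AEL 5 of 9 were higher and the others were not called, led by *hth* (2.56), *Dfd* (2.08) and *lab* (1.12). Genes of embryonic head patterning, the setting in which *oc*, *ems* and *btd* act as head gap genes, had 0 of 7 genes called between 96h AEL and 72h AEL with edgeR, 2 of them at an unadjusted p under 0.05, and over the alternative fits, DESeq2 among them, at most 2 were called higher and at most 1 lower. At 120h AEL relative to 96h AEL 3 of 7 were higher, *Dfd* (1.48), the segment polarity gene *gsb* (1.28) and the forkhead gene *slp1* (1.27). Relative to 72h AEL 3 of 7 were higher at 120h AEL, *Dfd* (2.08), *slp1* (1.11) and *slp2* (0.95).

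Partners and targets of Otd in photoreceptors gave 7 tested genes of 12 listed at 96h AEL, and most rhodopsin genes stayed under the filter. The rhodopsin genes *Rh5* and *Rh6* were tested and not called. They had 36.1 and 105 CPM in replicate C of 96h AEL. Replicate A had 3.57 and 11.5 CPM, and replicate B 0.878 and 1.82 CPM. The source of this RNA was not tested. Of the 7, 5 were higher at 96h AEL, led by the zinc finger genes *salr* (3.25) and *salm* (2.99) and the kinase gene *wts* (1.60). At 72h AEL *salr* had 1.75 to 2.79 CPM and *salm* 1.55 to 3.21 CPM. Both passed the filter only through the later stage, so they could hardly have been called lower. *salr* and *salm* were again higher at 120h AEL than at 96h AEL, by 2.06 and 1.78, whereas *melt*, whose product acts against *wts* in photoreceptor subtypes, fell by 0.77. At 120h AEL relative to 72h AEL 4 of 6 were higher, with *salr* at 5.27, *salm* at 4.74 and *wts* at 1.48.

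**Figure D4:**
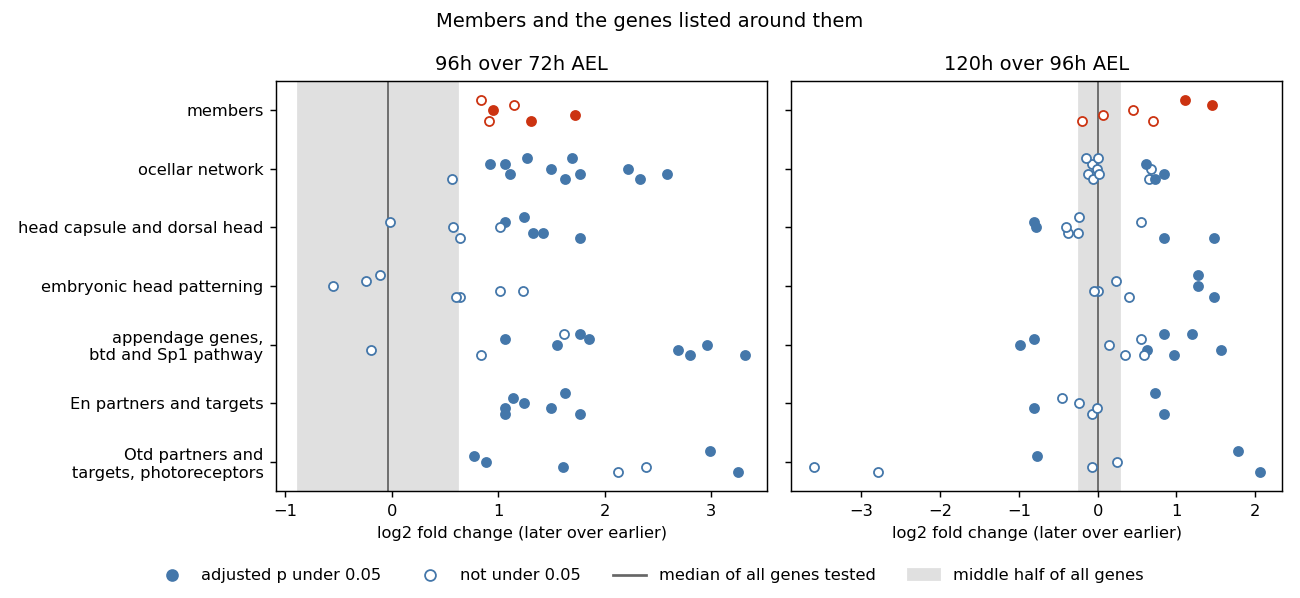
Log2 fold changes (horizontal axis) of the tested genes of the 6 lists and of the members (red) from 72h to 96h AEL (left) and from 96h to 120h AEL (right). Filled points have an adjusted p under 0.05 (edgeR), the line is the median and the grey band spans the quartiles of all genes tested. The ocellar network and the En partners lie to the right of the line from 72h to 96h AEL (medians 1.56 and 1.24). From 96h to 120h AEL their medians are near it (0.01 and -0.08), with genes on both sides and some outside the grey band.

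The list counts for 96h AEL over 72h AEL rested on replicates A and B of 96h AEL. When replicate B was left out, edgeR called 0 genes of the ocellar network (11 at an unadjusted p under 0.05), 0 of the head capsule list (6) and 0 of the En list (7), and called 5 of the appendage and 2 of the photoreceptor genes. When replicate A was left out, these counts were 5 for the ocellar network, 1 for the head capsule list, 2 for the En list, 5 for the appendage list and 2 for the photoreceptor list, the last of which was 3 when replicate C of 72h AEL was missing. *Dll*, *dac*, *B-H1*, *ss*, *salm* and *salr* were called in this comparison under all 15 alternatives tried. For 120h AEL over 96h AEL the number of higher genes fell to 1 in the ocellar, head capsule and En lists and to 2 in the appendage list when replicate B of 96h AEL or replicate A or C of 120h AEL was missing, and to 3 in the appendage list when replicate A of 96h AEL was. With all stages in one fit, which kept all samples, 1 of the ocellar, 1 of the head capsule, 1 of the En and 2 of the appendage genes were higher in this interval, as *hth*, *rdx*, *al* and *Lim1* were not called. The fit with the replicate letter as a block did not call *rdx*, *al*, *B-H2*, *dac* and *melt*. *hh*, *Dfd*, *B-H1*, *salm* and *salr* were called under all 14 alternatives in that interval, whereas *al* was called under 6 and the lower *dac* under 8, *melt* under 8 and *dpp* under 11. For 120h AEL over 72h AEL the head capsule count was 2 and the photoreceptor count 2 when replicate C of 120h AEL was missing, and the head capsule and En counts were 3 each when replicate A was.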

How the data were processed

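Single-end reads were aligned by the authors, without trimming, to 1 coding sequence per gene, the longest of FlyBase r5.55, using Bowtie2. They deposited raw counts per gene, made without normalization and without regard to strand. Their cluster numbers were deposited as labels (a score with no unit), made from these counts. Columns not mapped to a sample were 0. Of 13676 identifiers, 13406 were named with the BDGP6 annotation (Ensembl release 115), which also gave the coordinates. *wg*, *ap* and a few marker genes did not match a symbol and were not used here. The members and lists were chosen with earlier results of these data known.

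Counting and testing used R 4.3.3 with edgeR 4.0.16 (TMM, quasi-likelihood, two-sided, Benjamini-Hochberg over all genes tested, called at an adjusted p under 0.05), each pair of stages in its own fit. Libraries of 1 stage with a chi-square per gene under 1.5 (over genes with 20 or more counts in both together) were summed. Genes had to exceed a normalized count, 138 for 96h over 72h AEL, 145 for 120h over 96h AEL and 130 for 120h over 72h AEL, chosen among 100 thresholds between 1 and 200 by the similarity of replicates (loess span 0.3). Exceeding it in 1 sample was enough. A listed or marker gene under it throughout the earlier stage could thus hardly be called lower. Standard errors are the log2 fold change divided by the root of the test statistic. Similarity used log2 CPM with a prior count of 2. At this depth 3 counts were 0.0705 to 0.151 CPM, and intervals cover counting error only. Ratios were tested with two-sided exact permutation tests. Named were the members, from each list up to 3 called genes per comparison with the largest change, *hh*, *ptc*, *ci*, *eya*, *so*, *toy*, *Dll* and *hth*, and the 5 most similar genes per member. Marker genes and neighbours of the gene pairs were named by list and by position. DESeq2 1.42.0 and the other alternatives are given in the closing section. Figures used Python 3.11.15 with matplotlib 3.10.9.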

Additional observations from a re-analysis of the deposited data

How the results depend on the processing

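The direction of all 6 members held under all alternatives in the comparisons with 72h AEL and, except for *btd*, between 120h and 96h AEL. There the log2 fold change of *btd* ranged between -0.019 and 0.14 without 1 library, negative without replicate C of 120h AEL (-0.019) and without replicate B of 96h AEL (-0.0025). For 96h over 72h AEL 5 members were called, with *en* and *inv* added, under library size only, DESeq2, all stages in one fit, the length trend taken out, and with replicates A and B of 72h AEL kept apart (5670 genes called), also with the replicate block (5 members, 3331 genes). For DESeq2 and for all stages in one fit the number of all genes called in this comparison is not given here. For 120h over 96h AEL 1845 genes were called with DESeq2 and 1839 with the length trend taken out, which added *ems* (adjusted p = 0.0440). Without 1 library at a time, 0 to 3 members and 646 to 3966 genes were called for 96h over 72h AEL, 1 to 3 and 534 to 1358 for 120h over 96h AEL, and 4 to 6 and 2540 to 5069 for 120h over 72h AEL. A lone sample of 72h AEL was then assumed to vary like the other stage. Library size only moved the median of all genes to 0.46 for 96h over 72h AEL and 0.60 for 120h over 72h AEL, and the length trend to 0.44 and 0.46. The split of higher and lower calls became 3209 to 1269 and 4115 to 1618 with library size only and 3906 to 1446 and 4105 to 2002 with the length trend, against 1718 to 2042 and 2171 to 2629. Relative to these medians the members' changes stayed positive, the smallest being those of *inv* (0.64) for 96h over 72h AEL and *Sp1* (0.54) for 120h over 72h AEL, both with the length trend. In deviation from the stage mean, same-lettered replicates A, B and C correlated at -0.42, 0.18 and -0.31 between 96h and 72h AEL. Between 120h and 72h AEL they correlated at -0.16, 0.18 and 0.13, so without a common sign in either comparison. Between 120h and 96h AEL they correlated at 0.15, 0.13 and 0.099, each above its values with other letters (-0.18 to -0.015), a hint from the data and not the design, and the letters were not taken to pair the samples. The replicate block left 2 members and 851 genes for 120h over 96h AEL, and 6 members and 5666 genes for 120h over 72h AEL. Both count ratios kept their direction under the alternatives, which were chosen after seeing the data, as were those of the lists. Of the 30 most similar genes 25 were shared with filterByExpr. The cause of these differences was not tested. Depth limits *oc* most, at 40 counts in its lowest library.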

Other observations

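The genes next to both pairs, taken by position, had levels of their own. Beside *en* and *inv*, *E(Pc)*, which encodes a chromatin factor, averaged 161 CPM at 96h AEL and 46.8 CPM at 72h AEL, a log2 fold change of 1.82 (adjusted p = 0.0273), and -0.23 from 96h to 120h AEL (adjusted p = 0.562). On the other side *tou* rose by 1.16 at 96h AEL (adjusted p = 0.0175) and had a log2 fold change of 0.34 at 120h AEL relative to 96h AEL (adjusted p = 0.159), the interval in which *en* and *inv* were called. Beside *btd*, *nej*, the gene of the CBP acetyltransferase, rose by 1.79 at 96h AEL (adjusted p = 0.0183) and had a log2 fold change of -0.27 at 120h AEL relative to 96h AEL (adjusted p = 0.545). Beside *Sp1*, *CG1354* had a log2 fold change of -0.07 at 96h AEL (adjusted p = 0.733) and fell by 0.51 at 120h AEL relative to 96h AEL (adjusted p = 0.0390). All adjusted p-values are from edgeR, and these genes were outside the rule for named genes.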
